A study of Mus musculus with 16 samples.

Results

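Pyruvate can enter the mitochondrial tricarboxylic acid (TCA) cycle by several routes, and 10 mouse genes of these routes were followed here in hearts under pressure overload. They were taken by symbol from the deposited gene table, and 10 of 55487 table rows matched. Pdha1, Pdhb, Dlat, Dld and Pdhx encode subunits of the pyruvate dehydrogenase complex. Pdp1 and Pdp2 encode the phosphatases that switch it on, Pcx encodes pyruvate carboxylase, and Me1 and Me3 encode NADP-dependent malic enzymes. All 10 passed the filter on low counts and were among the 18275 genes tested.

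The libraries came from the heart apex of 16 male mice, 4 in each of 4 groups, taken 4 weeks after surgery. Ctrl mice had the WT genotype, and KO mice carried a CRISPR/Cas9 deletion of the long noncoding RNA Cardinal (Gm12295), with no promoter or Cre that limits it to one cell type in the sources used here. Transverse aortic constriction (TAC) ties the aorta narrower and loads the left ventricle, and sham mice had the same operation without the ligation. All mice weighed 25 to 30 g at surgery, and their ages are not given in the sources used here. Groups are named by genotype and surgery, as in Ctrl TAC.

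Library totals ranged from 53169437 to 79404714 counts, and 24458 to 26388 genes had at least 1 count. Cardinal stood at 2.69 to 8.02 CPM (counts scaled to library totals, as given in the methods) in the Ctrl libraries and at 0.276 to 0.553 CPM in 7 of the 8 KO libraries. The library labelled KO TAC 4 held 4.55 CPM and so went against its label. The main counts of called genes that rest on it are also given without it, for the 10 genes and for most of the pathway lists. Only some of the single values are. Cardiomyocyte markers had the highest of the marker sums in every library, at 40892 to 62204 CPM over 10 genes. Markers of atrial muscle, skeletal muscle and fat each summed to at most 4.44 CPM in any library. Ctrl TAC 2 held the highest sum of each, at 3.27, 4.44 and 2.94 CPM. The labels do not say that replicates shared a litter or a day, and the p-values measure the spread between these animals.

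The pyruvate dehydrogenase complex decarboxylates pyruvate to acetyl-CoA inside the mitochondrion and is the gate between carbohydrate and the TCA cycle. Its E1 enzyme is built from alpha (Pdha1) and beta (Pdhb) chains, its E2 core is the lipoylated acetyltransferase Dlat, its E3 is the dehydrogenase Dld shared with other complexes, and Pdhx tethers E3 to the core. Kinases (Pdk1 to Pdk4) phosphorylate E1 alpha and shut the complex, and the phosphatases Pdp1 and Pdp2 reopen it. Pyruvate carboxylase and the malic enzymes replenish cycle intermediates or draw on them, and the heart normally burns mostly fatty acids, which compete with pyruvate for oxidation.

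Upstream sequences are shown for 3 of the 10 genes, chosen after their values were seen: Pdp2, which fell most, Pcx, which shares a motif with it, and Pdhx, a subunit gene for which no change was called. Each line gives the 250 bases before the RefSeq start site on the gene's strand (GRCm38.p6), in lower case, with the E-box CACGTG in capitals. The Pdp2 window is chr8:104591222-104591471 on the plus strand, the Pcx window is chr19:4510222-4510471 on the plus strand and the Pdhx window is chr2:103073514-103073763 on the minus strand.
Pdp2: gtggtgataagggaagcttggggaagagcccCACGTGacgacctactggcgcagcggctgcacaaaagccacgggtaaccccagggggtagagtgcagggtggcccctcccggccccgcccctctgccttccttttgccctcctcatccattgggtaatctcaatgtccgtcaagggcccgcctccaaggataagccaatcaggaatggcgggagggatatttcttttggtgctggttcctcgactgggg
Pcx: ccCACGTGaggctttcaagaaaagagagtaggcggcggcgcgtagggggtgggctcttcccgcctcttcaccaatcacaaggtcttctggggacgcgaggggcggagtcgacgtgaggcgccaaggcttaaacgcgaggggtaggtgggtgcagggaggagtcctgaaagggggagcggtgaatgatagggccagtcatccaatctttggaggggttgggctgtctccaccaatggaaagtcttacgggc
Pdhx: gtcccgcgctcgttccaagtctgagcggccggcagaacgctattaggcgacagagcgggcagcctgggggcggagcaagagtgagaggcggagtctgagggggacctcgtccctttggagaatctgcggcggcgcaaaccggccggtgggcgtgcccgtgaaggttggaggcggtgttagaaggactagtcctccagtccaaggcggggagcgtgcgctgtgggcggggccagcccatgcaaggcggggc
RefSeq windows were matched by symbol for 9 of the 10 genes, in 11 windows. CACGTG, which reads the same on both strands, stood in 2 of the 11 windows and in 6.02% of 32851 windows of all genes. The 2 were the Pdp2 window and the printed Pcx window, and another Pcx window, chr19:4594069-4594318, had none. The estrogen-related receptor motif TNAAGGTCA was searched on both strands and stood in 0 of the 11 windows and in 1.14% of all windows. CCGGAAG of ETS factors and the NRF1 core GCGCATGC, searched likewise, stood in 0 of the 11 and in 6.91% and 2.26% of all windows. These are letter matches and describe the sequence only.

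Levels differed widely between the 10 genes. Per kilobase of the principal transcript in Ctrl sham hearts, Pdha1 stood highest at 408 ± 21.4 CPM per kilobase (SD, n = 4) and Pdhb followed at 397 (376 to 418 over the 4 libraries), overlapping Pdha1. Dld stood at 203 ± 10.6, Dlat at 116 ± 7.39 and Pdhx at 47.9 ± 2.66 CPM per kilobase, each apart from the next. The malic enzymes followed with 39.5 ± 1.42 for Me1 and 14.2 ± 1.13 for Me3. Pcx at 9.40 ± 0.922 and Pdp1 at 9.33 ± 1.23 CPM per kilobase overlapped, and Pdp2 was lowest at 5.97 ± 0.989. Divided by the length of all annotated exons, Pdhb fell to 156 CPM per kilobase against 311 for Pdha1, Me1 at 33.7 passed Pdhx at 30.6, and Me3 at 4.36 fell below Pdp2.

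TAC lowered most of the 10 genes in both genotypes and raised none of them past the test. In Ctrl hearts 6 of the 10 were called lower, Pdha1, Dld, Pdp1, Pdp2, Pcx and Me3, and 0 higher, where 9.60% of all genes tested were called lower and 10.4% higher. In KO hearts 7 of the 10 were called lower, Pdha1, Pdhb, Dlat, Dld, Pdp2, Pcx and Me3, and 0 higher, against 16.5% lower and 17.8% higher among all genes. The median of the 10 on the log2 scale was -0.23 in Ctrl and -0.27 in KO hearts, and that of all genes was 0.00 in both. Averaged over genotypes, 8 of the 10 were called lower and 0 higher, with 20.2% and 21.3% of all genes called in those directions, and Pdhx and Me1 were the exceptions. The averaged call of Pdhb (-0.10, adjusted p = 0.0188) was lost with a term for either series of animal numbers, at -0.07 (adjusted p = 0.231) and -0.06 (adjusted p = 0.307). Without KO TAC 4 the KO count stayed at 7 and the averaged count at 8. A gene was called where the adjusted p of the edgeR quasi-likelihood test was under 0.05. Ctrl and KO responses use separate sham and TAC animals. In bulk tissue, fewer cardiomyocytes and less RNA of a gene per cardiomyocyte cannot be told apart.

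**Figure D1:**
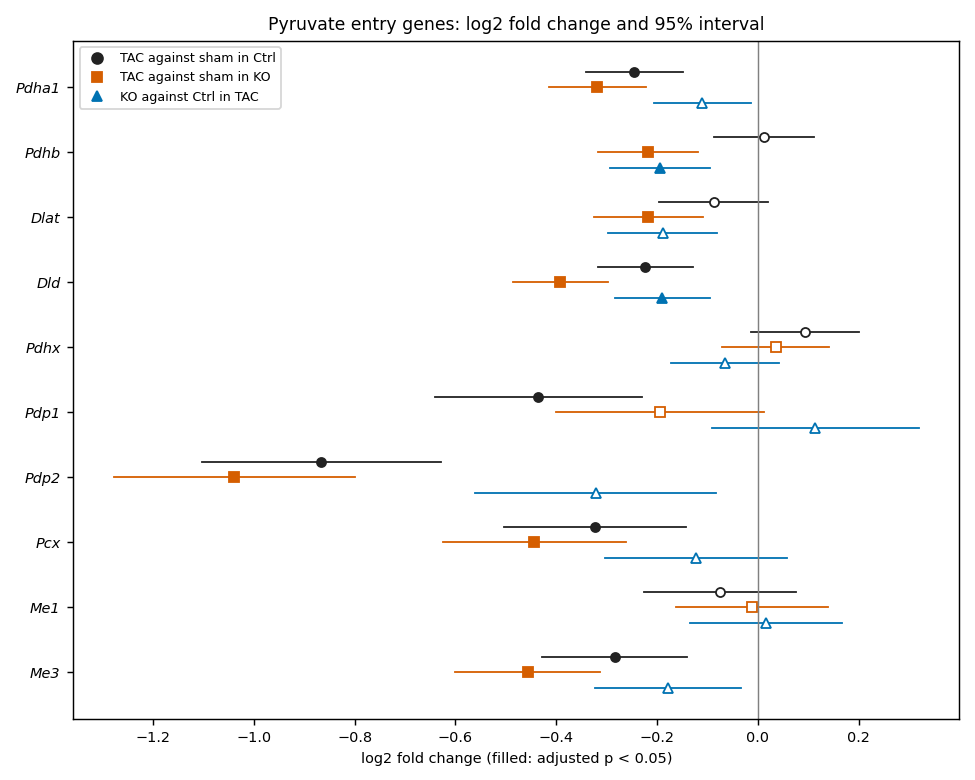
Log2 fold change (x axis) of each of the 10 genes (y axis), with 95% intervals as lines, for TAC against sham in Ctrl (circles), TAC against sham in KO (squares) and KO against Ctrl in TAC hearts (triangles). Filled symbols passed an adjusted p under 0.05. Pdp2 lies farthest to the left, at -0.87 in Ctrl and -1.04 in KO hearts, and the intervals of Pdhx and Me1 include 0 in all 3 comparisons.

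E1 alpha fell with TAC in both genotypes. Pdha1 (ENSMUSG00000031299, chrX:160122209-160138413, minus strand) read 1247, 1117, 1118 and 1167 CPM in Ctrl sham hearts and 976, 987, 1019 and 941 CPM in Ctrl TAC hearts. It read 1112, 1152, 1100 and 1169 CPM in KO sham and 898, 912, 911 and 914 CPM in KO TAC hearts. Every TAC library lay under every sham library of its genotype. The log2 fold change was -0.25 in Ctrl (SE 0.05, adjusted p = 0.000878) and -0.32 in KO hearts (SE 0.05, adjusted p = 3.00e-05), or 0.844 and 0.802 of the sham level. Each KO TAC library also lay under each Ctrl TAC library, but the log2 difference of -0.11 did not pass the test (adjusted p = 0.198). Of the exon bases of Pdha1, 16.1% overlap Map3k15 on the other strand, which was at 1.20 to 2.43 CPM.

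For E1 beta a change with TAC was called in KO hearts and not in Ctrl hearts. Pdhb (ENSMUSG00000021748, chr14:8165996-8173025, minus strand) read 611, 593, 568 and 633 CPM in Ctrl sham and 634, 608, 606 and 577 CPM in Ctrl TAC hearts, and these groups overlapped throughout. It read 605, 647, 624 and 591 CPM in KO sham and 544, 543, 517 and 517 CPM in KO TAC hearts, which did not overlap. The log2 fold change with TAC was 0.01 in Ctrl hearts (95% interval -0.09 to 0.11, adjusted p = 0.899) and -0.22 in KO hearts (SE 0.05, adjusted p = 0.00147). The KO call was lost, at -0.15 with an adjusted p of 0.0725, when the model had a term for the mice whose numbers begin with 33 (Ctrl sham 4 and KO sham 1, 2 and 3). The difference between the 2 responses, -0.23 (SE 0.07), did not pass the edgeR quasi-likelihood test (adjusted p = 0.240).

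The E2 core gene Dlat was also called lower in KO hearts and not in Ctrl hearts. Dlat (ENSMUSG00000000168, chr9:50634633-50659780, minus strand) read 503, 430, 465 and 467 CPM in Ctrl sham and 453, 456, 429 and 418 CPM in Ctrl TAC hearts, with overlap. In KO sham hearts it read 449, 464, 427 and 453 CPM and in KO TAC hearts 397, 367, 382 and 394 CPM, with no overlap. Dlat had a log2 fold change of -0.09 in Ctrl (95% interval -0.20 to 0.02, adjusted p = 0.263) and -0.22 in KO hearts (SE 0.05, adjusted p = 0.00289).

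The E3 gene Dld, whose product also serves the 2-oxoglutarate and branched-chain complexes, fell in both genotypes. Dld (ENSMUSG00000020664, chr12:31331277-31351453, minus strand) read 553, 488, 513 and 511 CPM in Ctrl sham and 453, 445, 450 and 421 CPM in Ctrl TAC hearts. It read 502, 520, 500 and 514 CPM in KO sham and 386, 390, 377 and 398 CPM in KO TAC hearts. No TAC library reached a sham library, and no KO TAC library reached a Ctrl TAC library. Dld had a log2 fold change of -0.22 in Ctrl (SE 0.04, adjusted p = 0.00164) and -0.39 in KO hearts (SE 0.04, adjusted p = 2.67e-06).

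For Pdhx, the E3-binding protein, no change was called. Pdhx (ENSMUSG00000010914, chr2:103021075-103073513, minus strand) read 129, 114, 117 and 121 CPM in Ctrl sham and 136, 128, 127 and 122 CPM in Ctrl TAC hearts. It read 119, 127, 120 and 112 CPM in KO sham and 124, 126, 119 and 121 CPM in KO TAC hearts, and sham and TAC libraries overlapped in both genotypes. The 95% interval of the log2 fold change was -0.01 to 0.20 in Ctrl (adjusted p = 0.219) and -0.07 to 0.14 in KO hearts (adjusted p = 0.639), so a fall as large as that estimated for Pdha1 lay outside it in each genotype.

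**Figure D2:**
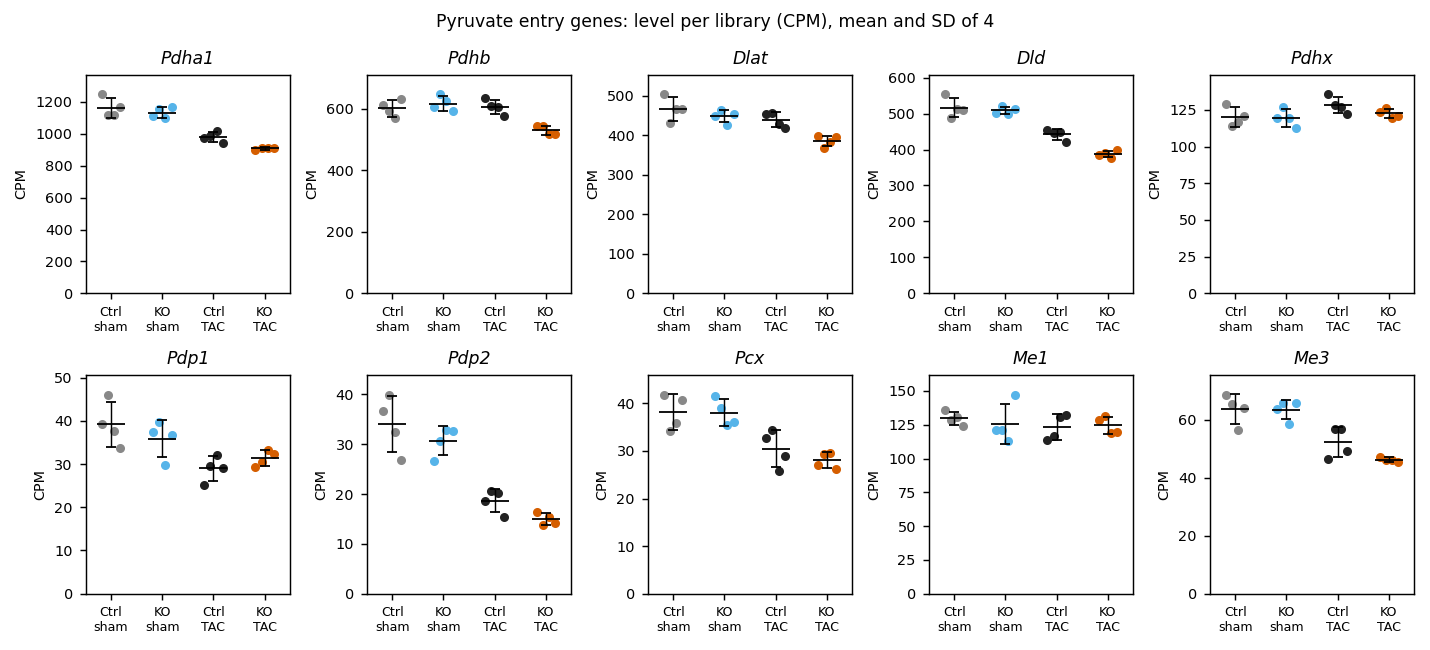
Level of each of the 10 genes in every library (y axis, CPM, from 0) by group (x axis), with points for the 4 libraries of a group and bars for mean and SD. Pdp2 falls from 34.0 and 30.7 CPM in sham to 18.7 and 14.9 CPM in TAC hearts, and the Me1 points overlap in all groups.

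Of the phosphatase genes, Pdp2 fell in both genotypes, by the most of the 10, and Pdp1 fell in Ctrl hearts. Pdp2 (ENSMUSG00000048371, chr8:104591451-104599026, plus strand), with the upstream sequence given above, read 36.7, 39.9, 32.4 and 26.9 CPM in Ctrl sham and 18.5, 20.6, 20.1 and 15.4 CPM in Ctrl TAC hearts. It read 26.7, 30.6, 32.9 and 32.6 CPM in KO sham and 16.3, 13.7, 15.4 and 14.3 CPM in KO TAC hearts. The lowest sham library stood above the highest TAC library in each genotype. Pdp2 had a log2 fold change of -0.87 in Ctrl (SE 0.11, adjusted p = 4.10e-05) and -1.04 in KO hearts (SE 0.11, adjusted p = 2.31e-06), or 0.549 and 0.487 of the sham level.

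Pdp1, the calcium-sensitive phosphatase (ENSMUSG00000049225, chr4:11958184-11966452, minus strand), read 39.4, 46.0, 37.7 and 33.6 CPM in Ctrl sham and 25.1, 29.6, 32.2 and 29.0 CPM in Ctrl TAC hearts, with no overlap. In KO hearts it read 37.4, 39.7, 29.7 and 36.7 CPM after sham and 29.3, 30.5, 33.3 and 32.4 CPM after TAC, with overlap. The Ctrl log2 fold change of -0.44 passed the test (SE 0.10, adjusted p = 0.00408), and the KO value of -0.19 did not (95% interval -0.40 to 0.01, adjusted p = 0.138). The KO value passed without KO sham 3, at -0.27 with an adjusted p of 0.0291. The difference between genotypes in the response of Pdp1, 0.24 (SE 0.14), was not called (adjusted p = 0.542).

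The anaplerotic enzyme gene Pcx fell in both genotypes. Pcx (ENSMUSG00000024892, chr19:4510472-4621752, plus strand) read 41.8, 34.1, 35.9 and 40.8 CPM in Ctrl sham and 32.8, 34.4, 25.8 and 29.0 CPM in Ctrl TAC hearts. It read 41.6, 39.1, 35.5 and 36.1 CPM in KO sham and 27.1, 29.3, 29.5 and 26.1 CPM in KO TAC hearts. The KO groups did not overlap, and in Ctrl hearts the lowest sham library, at 34.1 CPM, lay just under the highest TAC library. Pcx had a log2 fold change of -0.32 in Ctrl (SE 0.09, adjusted p = 0.0118) and -0.44 in KO hearts (SE 0.09, adjusted p = 0.000589). A term for the first series of animal numbers moved the Ctrl value to -0.22, which was not called (adjusted p = 0.214). That series held Ctrl TAC 2, 3 and 4 and no Ctrl sham mouse.

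Of the malic enzymes, Me3 fell with TAC in both genotypes and no change was called for Me1. The mitochondrial Me3 (ENSMUSG00000030621, chr7:89632392-89854359, plus strand) read 68.6, 65.5, 56.6 and 64.2 CPM in Ctrl sham, 46.5, 56.9, 56.8 and 49.2 CPM in Ctrl TAC, 63.8, 65.9, 58.6 and 65.8 CPM in KO sham and 47.2, 46.2, 46.2 and 45.5 CPM in KO TAC hearts. The KO groups did not overlap, and in Ctrl hearts 1 sham library lay just under the highest TAC libraries. Its log2 fold change was -0.28 in Ctrl (SE 0.07, adjusted p = 0.00642) and -0.46 in KO hearts (SE 0.07, adjusted p = 4.99e-05). The cytosolic Me1 (ENSMUSG00000032418, chr9:86581371-86695953, minus strand) read 113 to 147 CPM over all 16 libraries with every group overlapping the others. The 95% interval of its log2 fold change was -0.23 to 0.08 in Ctrl (adjusted p = 0.523) and -0.16 to 0.14 in KO hearts (adjusted p = 0.921).

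Groups that did not overlap were counted as well. Sham and TAC libraries were apart, with TAC lower, for 4 of the 10 genes in Ctrl hearts (Pdha1, Dld, Pdp1 and Pdp2), where 9.97% of all genes were. In KO hearts they were apart for 7 of the 10 (Pdha1, Pdhb, Dlat, Dld, Pdp2, Pcx and Me3), where 16.6% of all genes were. The 7 were the genes called in KO hearts. Without KO TAC 4 the count in KO hearts was again 7 of the 10, where 18.8% of all genes were apart.

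In unloaded hearts no difference between genotypes was called. By edgeR 0 of the 10 genes were called between the sham groups, and 0.00% of all genes were. Cardinal itself, deleted in the KO mice and lower in every KO sham library, was thus not called either. The lack of a call here therefore does not show equal levels. At an unadjusted p under 0.05 there were 0 of the 10 and 479 of all genes, and DESeq2 also called 0 of the 10. The median log2 difference of the 10 was -0.03, and Pdp2 had the largest at -0.15 (95% interval -0.38 to 0.09). The intervals were narrower for the abundant subunits, such as -0.13 to 0.06 for Pdha1 and -0.06 to 0.14 for Pdhb.

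After TAC, 2 of the 10 genes were called lower in KO than in Ctrl hearts and 0 higher, where 1.32% of all genes were called lower and 1.36% higher. Dld fell by 0.19 on the log2 scale (SE 0.04, adjusted p = 0.0338), from 442 ± 14.8 to 388 ± 8.70 CPM (SD, n = 4 each), and Pdhb fell by 0.19 (SE 0.05, adjusted p = 0.0380), from 606 ± 23.6 to 530 ± 15.4 CPM. Dlat, at 439 ± 18.7 and 385 ± 13.6 CPM, had a log2 difference of -0.19 that missed the threshold (SE 0.05, adjusted p = 0.0545). The KO TAC libraries lay under all Ctrl TAC libraries for 4 of the 10, Pdha1, Pdhb, Dlat and Dld, and for 4.99% of all genes (4 of the 10 and 7.43% without KO TAC 4). At an unadjusted p under 0.05 stood 6 of the 10, adding Pdha1, Dlat, Pdp2 and Me3, against 3380 of all genes.

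The calls of Dld and Pdhb between KO TAC and Ctrl TAC depended on single libraries and on the model. Without the library labelled KO TAC 4, Dld stayed called at -0.20 (adjusted p = 0.0419) and Pdhb did not, at -0.18 (adjusted p = 0.0793). Neither was called without any 1 of Ctrl TAC 1, 2 or 3 or KO TAC 1, 2 or 3, and Pdhb was also lost without KO sham 1. Dlat was called in its turn without Ctrl sham 1, Ctrl sham 2 or Ctrl TAC 4. Leaving out a library moved the log2 difference of Pdhb only between -0.22 and -0.17 and that of Dld between -0.21 and -0.18. Neither was called with the first series of animal numbers in the model (adjusted p = 0.102 for Pdhb and 0.133 for Dld). That series was KO TAC 4 and Ctrl TAC 2, 3 and 4, so its term cannot be cleanly told apart from genotype here. Nor was either called in a fit to the 8 TAC libraries alone (adjusted p = 0.0985 and 0.0923). The calls of TAC against sham in KO hearts were the same 7 genes without KO TAC 4.

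The genotype by surgery interaction, which tests whether TAC acted differently in KO and Ctrl hearts, called 0 of the 10 genes with edgeR and 0.0109% of all genes (2 genes). Pdhb and Dld had unadjusted p-values under 0.05, at 0.00291 and 0.0162, among 2024 such genes of all tested. The median interaction of the 10 was -0.13, with 8 of the 10 below 0, and without KO TAC 4 it was -0.11 with 0 called. DESeq2 called 1 of the 10, Pdhb, at -0.23 (adjusted p = 0.0469). A response called in one genotype and not in the other, as for Pdhb, Dlat and Pdp1, was therefore not shown to differ between genotypes by the edgeR test.

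Markers of cell types moved with these results. The summed level of 10 cardiomyocyte markers was 54494 to 62204 CPM in Ctrl sham, 55000 to 60356 in KO sham, 47418 to 51878 in Ctrl TAC and 40892 to 42866 CPM in KO TAC hearts, so every TAC library lay under every sham library and every KO TAC library under every Ctrl TAC library. In Ctrl hearts 5 of the 10 markers were called lower and 2 higher with TAC, and in KO hearts 7 lower and 0 higher. The sum of 7 fibroblast markers rose from 557 to 668 CPM in Ctrl sham and 581 to 617 CPM in KO sham to 996 to 1345 CPM in Ctrl TAC and 1406 to 1592 CPM in KO TAC hearts. The sums of 6 macrophage markers were 85.6 to 114 CPM in sham and 113 to 156 CPM in TAC hearts, apart within each genotype. Those of endothelial and smooth muscle markers overlapped between all groups, and none of the cardiomyocyte, fibroblast or macrophage markers was at 0. With TAC, 4 of 7 fibroblast and 3 of 6 macrophage markers were called higher in Ctrl hearts, and 7 and 5 in KO hearts. Of all genes, 10.4% and 17.8% were called higher. Between KO TAC and Ctrl TAC 1 macrophage marker was called lower and 1 fibroblast marker higher, the latter not without KO TAC 4. The part of cell composition in the falls of the 10 genes was not tested.

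The 10 genes were also set against the cardiomyocyte markers of the same library, a measure chosen after seeing the data. The markers were Myh6, Tnnt2, Tnni3, Tnnc1, Actn2, Ryr2, Pln, Myl2, Myl3 and Ttn. In Ctrl hearts 5 of them were called lower with TAC and 2 higher, so their mean does not stand for the number of cardiomyocytes. The mean log2 CPM of the 10 markers fell by 0.12 with TAC in Ctrl hearts, by 0.33 in KO hearts and by 0.20 from Ctrl TAC to KO TAC. Relative to that mean, Pdp2 stood at -6.80, -6.56, -6.86 and -7.13 in Ctrl sham and -7.57, -7.45, -7.50 and -7.77 in Ctrl TAC hearts on the log2 scale. In KO hearts it stood at -7.21, -6.96, -6.88 and -6.88 after sham and at -7.54, -7.78, -7.66 and -7.78 after TAC. The fall was thus -0.73 in Ctrl and -0.71 in KO hearts, with no overlap, and Pdp2 was the only one of the 10 that lay lower without overlap in both genotypes.

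Relative to the markers, the complex subunits differed in direction. Pdha1 was lower with TAC in Ctrl hearts (-0.12, no overlap) and at 0.01 with overlap in KO hearts. Dld was at -0.10 in Ctrl hearts with no overlap and at -0.06 with overlap in KO hearts. Pdhb was at 0.13 and 0.11 with overlap in both, Dlat at 0.04 with overlap and 0.11 without, and Pdhx rose relative to the markers without overlap, by 0.22 in Ctrl and 0.37 in KO hearts. Between KO TAC and Ctrl TAC the relative differences of Pdhb, Dlat and Dld were 0.00, 0.01 and 0.01, and that of Pdha1 was 0.09, with KO higher and no overlap. Without KO TAC 4 these 4 values were 0.02, 0.01, 0.00 and 0.09, and the fall of Pdp2 in KO hearts was -0.68, still without overlap. Pdp1 was lower with TAC in Ctrl hearts (-0.31, no overlap) and at 0.14 with overlap in KO hearts. Between KO TAC and Ctrl TAC, Pdp1 was at 0.32, with KO higher and no overlap, and at 0.31 without KO TAC 4, again without overlap. Set against the summed CPM of the markers, Pdha1, Dld and Pdp1 overlapped in Ctrl hearts, at -0.05, -0.02 and -0.23, and Pdp2 was still lower without overlap in both genotypes, at -0.66 and -0.60.

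**Figure D3:**
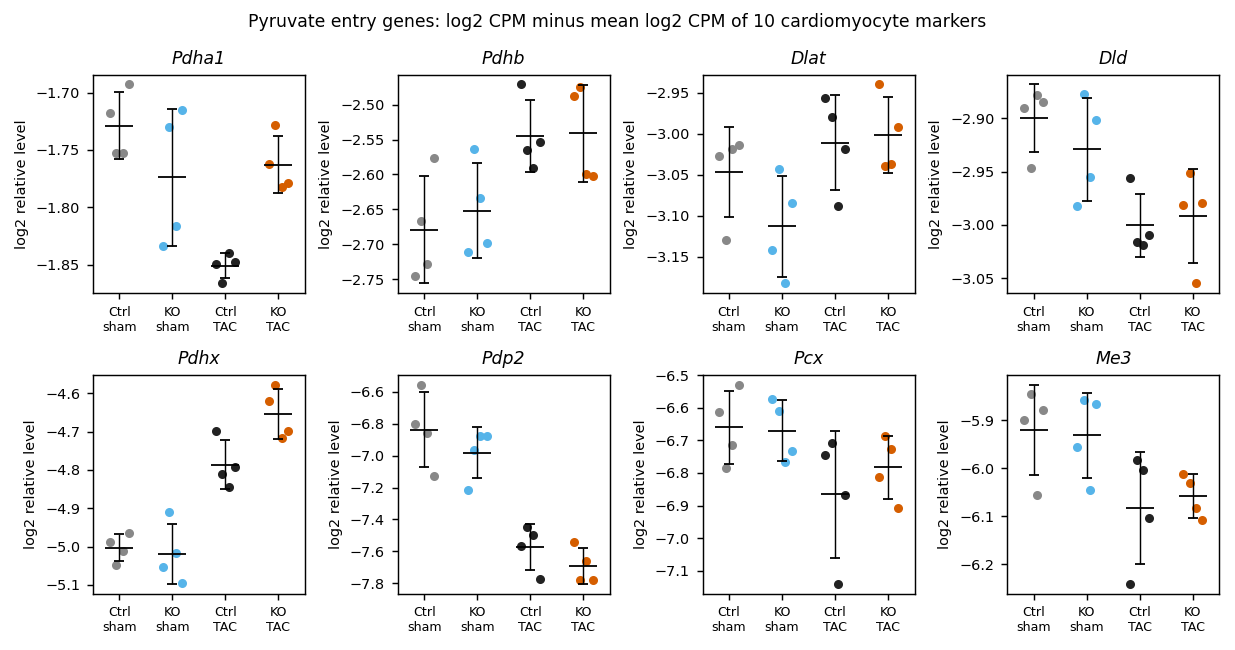
Log2 level of 8 of the 10 genes relative to the mean log2 CPM of 10 cardiomyocyte markers in the same library (y axis), by group (x axis), with points for libraries and bars for mean and SD of 4. Pdp2 is lower after TAC in both genotypes without overlap, and Pdhx is higher after TAC in both without overlap.

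Ratios inside a library do not depend on the scaling between libraries. The log2 ratio of Pdhx to Dlat, the E3-binding protein to the E2 it sits beside, was -1.96 ± 0.0306 in Ctrl sham and -1.78 ± 0.0384 in Ctrl TAC hearts, and -1.91 ± 0.0766 in KO sham and -1.65 ± 0.0762 in KO TAC hearts (SD, n = 4). It was higher after TAC in each genotype and in KO TAC than in Ctrl TAC, without overlap each time. The log2 ratio of Pdp1 to Pdp2 was 0.21 ± 0.0895 and 0.64 ± 0.206 in Ctrl sham and TAC hearts, and 0.22 ± 0.277 and 1.07 ± 0.153 in KO sham and TAC hearts, again without overlap between sham and TAC. Dld to Dlat fell by 0.14 in Ctrl and 0.17 in KO hearts, and Pdha1 to Pdhb fell by 0.26 in Ctrl hearts, all without overlap. Without KO TAC 4, the difference in KO hearts was 0.27 for Pdhx to Dlat, 0.81 for Pdp1 to Pdp2 and -0.17 for Dld to Dlat, and Pdhx to Dlat was 0.14 higher in KO TAC than in Ctrl TAC, each without overlap.

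None of these ratios passed the correction for the 28 ratio tests. Where groups did not overlap, the exact two-sided permutation test over 70 relabellings gave p = 0.0286, the smallest it can give, and the adjusted p was 0.0889. With 4 libraries per group a ratio could pass only if most of the 28 tests reached that smallest p. The lack of a pass therefore does not show that the ratios were unchanged. The ratio of Me1 to Me3 was 0.98 ± 0.125 in KO sham and 1.43 ± 0.0628 in KO TAC hearts, with the same exact p of 0.0286 and adjusted p of 0.0889, and in Ctrl hearts it differed by 0.21 with overlap (exact permutation p = 0.0857, adjusted p = 0.160). The ratio of Pdk4 to Pdp2 differed by 0.59 in Ctrl and 0.15 in KO hearts with overlap (exact permutation p = 0.143 and 0.657).

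**Figure D4:**
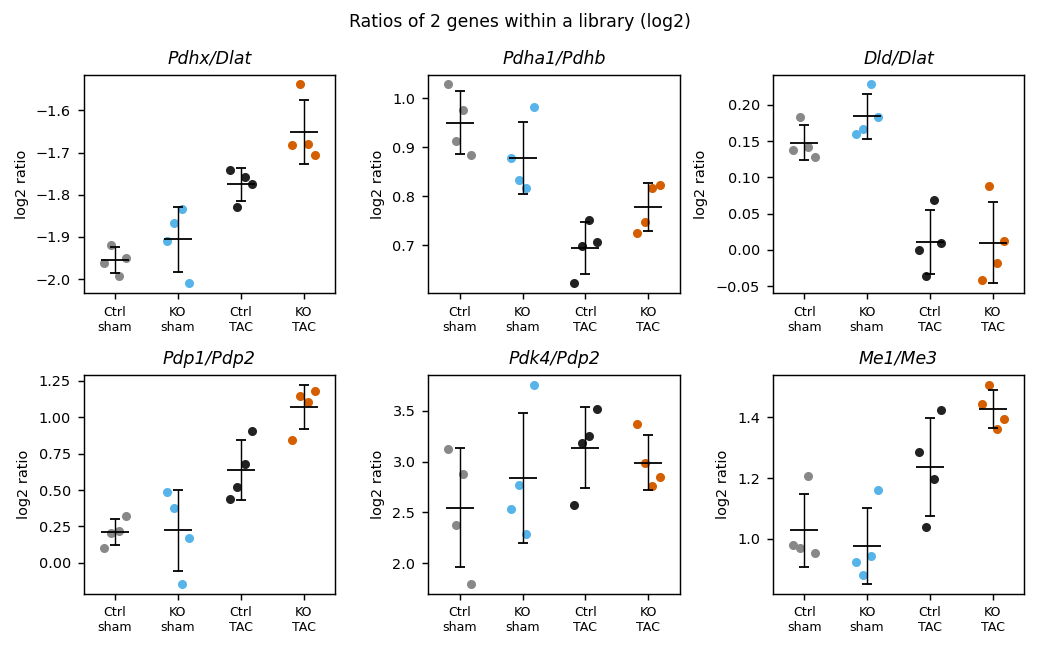
Log2 ratio of 6 gene pairs inside each library (y axis) by group (x axis), with points for libraries and bars for mean and SD of 4. Pdhx to Dlat and Pdp1 to Pdp2 are higher after TAC in both genotypes without overlap, and Pdk4 to Pdp2 overlaps in all groups.

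Of the kinases that oppose the phosphatases, Pdk2 was called lower in both genotypes and Pdk3 higher in KO hearts. Pdk2, the kinase expressed most broadly, read 326 to 352 CPM in Ctrl sham, 243 to 293 in Ctrl TAC, 323 to 355 in KO sham and 222 to 263 CPM in KO TAC hearts, and fell by 0.38 in Ctrl (SE 0.06, adjusted p = 0.000255) and 0.54 in KO hearts (SE 0.06, adjusted p = 2.69e-06) on the log2 scale. Pdk3, at 1.21 to 2.81 CPM the scarcest of the kinases, rose in KO hearts by 0.70 (SE 0.14, adjusted p = 0.000757) and had a value of 0.37 in Ctrl hearts (adjusted p = 0.0758), which was called without Ctrl TAC 2, at 0.44 with an adjusted p of 0.0470. Pdk1 was not called in Ctrl or KO hearts, at -0.07 and -0.09.

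Pdk4, the kinase induced by fasting and fatty acids, varied widely among sham hearts. It read 320, 208, 238 and 93.8 CPM in Ctrl sham, 155, 209, 161 and 441 in KO sham, 111, 187, 193 and 177 in Ctrl TAC and 169, 109, 105 and 103 CPM in KO TAC hearts. The log2 fold change with TAC was -0.36 in Ctrl (95% interval -1.23 to 0.50, adjusted p = 0.583) and -0.99 in KO hearts (95% interval -1.86 to -0.12, adjusted p = 0.0746). Leaving out 1 library moved the Ctrl value to -0.61 when Ctrl sham 4 was omitted, to -0.11 for Ctrl sham 1 and to -0.21 for Ctrl TAC 1, and moved the KO value between -1.19 and -0.53, the last without KO sham 4 (adjusted p = 0.289). The KO value passed with DESeq2 (adjusted p = 0.0396) and without Ctrl sham 4 (adjusted p = 0.0408), and the term for mice whose numbers begin with 33 moved it to -1.90 (adjusted p = 0.000242).

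**Figure D5:**
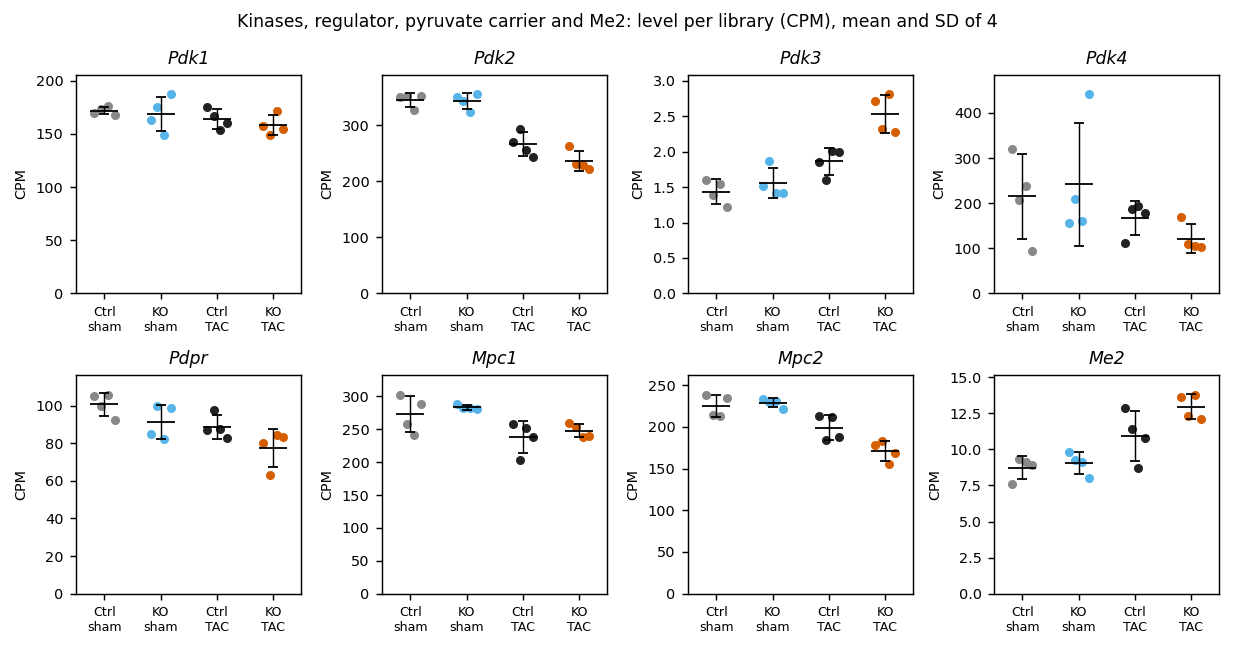
Level of the 4 kinase genes, the phosphatase regulator Pdpr, both pyruvate carrier genes and Me2 in every library (y axis, CPM, from 0) by group (x axis), with points for libraries and bars for mean and SD of 4. Pdk2 is lower and Pdk3 higher in KO TAC than in KO sham hearts, and Pdk4 spreads from 93.8 to 441 CPM among the sham libraries.

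Of the genes that supply pyruvate to the complex, most were called lower with TAC. Mpc1 and Mpc2 encode the paired subunits of the mitochondrial pyruvate carrier. Mpc2 fell by 0.42 in KO hearts (SE 0.06, adjusted p = 3.93e-05), and its value of -0.18 in Ctrl hearts was called (adjusted p = 0.0465) but lost that call without any 1 of Ctrl sham 1 or 4, the 4 KO sham libraries, Ctrl TAC 2 or 4 or KO TAC 1 or 4. Mpc1 had -0.20 in Ctrl (adjusted p = 0.0603) and -0.19 in KO hearts (adjusted p = 0.0477), and the KO call held in 4 of 16 fits that left out 1 library each, those without Ctrl sham 1 or 3 or Ctrl TAC 1 or 2. Relative to the cardiomyocyte markers Mpc1 was 0.14 higher with TAC in KO hearts, without overlap. Of the 8 genes of pyruvate supply (lactate dehydrogenases, pyruvate kinase, the carrier, a monocarboxylate transporter and alanine transaminases), 5 were called lower and 0 higher in Ctrl hearts and 6 lower and 1 higher in KO hearts (5 lower and 1 higher without KO TAC 4). Of all genes, 9.60% and 16.5% were called lower and 10.4% and 17.8% higher in Ctrl and KO hearts. The monocarboxylate transporter gene Slc16a1 was called in neither. The alanine transaminase Gpt fell most, by 0.66 and 1.03 on the log2 scale (adjusted p = 0.000144 and 5.65e-07), and was also lower in KO TAC than in Ctrl TAC hearts (-0.48, adjusted p = 0.0200), with -0.49 and an adjusted p of 0.0364 without KO TAC 4, a call lost without Ctrl TAC 2 or 3 or KO TAC 3. Ldha was the gene that rose in KO hearts, by 0.15 (adjusted p = 0.0282), and that call was lost without KO sham 1, 2 or 4 or KO TAC 2 or 3.

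Of the 5 kinase and regulator genes, 1 was called lower in Ctrl hearts (Pdk2), and 2 lower (Pdk2 and Pdpr) and 1 higher (Pdk3) in KO hearts, with or without KO TAC 4. Of all genes, 9.60% were called lower in Ctrl hearts, and 16.5% lower and 17.8% higher in KO hearts. Pdpr, the regulatory partner of Pdp1, had -0.18 in Ctrl (adjusted p = 0.157) and -0.24 in KO hearts (adjusted p = 0.0457), and the KO call held in 6 of 16 fits that left out 1 library. It was lost without Ctrl sham 1, 2 or 3, KO sham 2 or 4, Ctrl TAC 1, 3 or 4 or KO TAC 1 or 2.

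Most genes of the other complexes that carry the lipoate arm were called lower with TAC. Of 10 genes of the 2-oxoglutarate, branched-chain and glycine complexes, 7 were called lower in Ctrl and 8 in KO hearts and 0 higher in either, with medians of -0.26 and -0.68, where 9.60% and 16.5% of all genes were called lower. The KO count was 8 without KO TAC 4 as well. Bckdhb, of the branched-chain complex, fell most in Ctrl hearts, by 0.60 (adjusted p = 2.01e-05), and Dhtkd1, a 2-oxoadipate dehydrogenase, fell most in KO hearts, by 1.00 (adjusted p = 1.89e-06). Between KO TAC and Ctrl TAC 3 of the 10 were called lower, with Ogdhl furthest at -0.48 (adjusted p = 0.00753), and 2 of the 10 without KO TAC 4, where Ogdhl was at -0.49 (adjusted p = 0.00899). Of all genes, 1.32% were called lower in that comparison, and 1.09% without KO TAC 4.

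Of 13 genes that make and attach lipoate, 2 were called lower in Ctrl and 5 in KO hearts (4 without KO TAC 4) and 0 higher, beside 9.60% and 16.5% of all genes called lower, with medians of 0.03 and -0.16. Oxsm, an enzyme of mitochondrial fatty acid synthesis, fell most in each, by 0.18 in Ctrl (adjusted p = 0.0380) and 0.28 in KO hearts (adjusted p = 0.00128), and its Ctrl call was lost without Ctrl sham 1, 2 or 3 or Ctrl TAC 1, 3 or 4. Glrx5, an iron-sulfur cluster carrier, was the 1 gene of the list called between KO TAC and Ctrl TAC (-0.23, adjusted p = 0.0337), and it lost that call without KO TAC 4 (-0.21, adjusted p = 0.0692) and without Ctrl TAC 2 or 3 or KO TAC 1, 2 or 3. Of all genes, 1.32% were called lower between those groups. Of 7 thiamine and biotin cofactor genes 1 was called in each genotype, the biotin transporter gene Slc5a6, which fell by 0.34 in Ctrl (adjusted p = 0.0398) and 0.55 in KO hearts (adjusted p = 0.000852). That is 1 of 7 beside the 9.60% and 16.5% of all genes called lower with TAC, and the Ctrl call was lost without Ctrl sham 1 or 3 or Ctrl TAC 1 or 4.

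Of 6 genes of the other carboxylases that use biotin as Pcx does, 5 were called lower and 0 higher in each genotype, with medians of -0.34 and -0.56, where 9.60% and 16.5% of all genes were called lower. The KO count was 5 without KO TAC 4 as well. Mccc2, of the leucine pathway, fell most, by 0.47 in Ctrl (adjusted p = 6.21e-05) and 0.70 in KO hearts (adjusted p = 3.36e-07). Its partner Mccc1 had the largest of 3 calls between KO TAC and Ctrl TAC (-0.27, adjusted p = 0.0216), a call that held without KO TAC 4 (adjusted p = 0.0408, with 2 calls in the list) and was lost without Ctrl TAC 2 or 3 or KO TAC 1 or 3. All 3 were called lower, as were 1.32% of all genes in that comparison, and 1.09% without KO TAC 4.

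Genes of citrate and malate handling split in direction. Of 10 genes, 4 were called lower and 1 higher in Ctrl hearts and 4 lower and 3 higher in KO hearts, with or without KO TAC 4, where 9.60% and 10.4% of all genes were called lower and higher in Ctrl and 16.5% and 17.8% in KO hearts. Citrate synthase (Cs), which takes up the acetyl-CoA made by the complex, fell most, by 0.33 in Ctrl (adjusted p = 0.000191) and 0.46 in KO hearts (adjusted p = 2.46e-06). Me2, the NAD-dependent mitochondrial malic enzyme, moved opposite to Me3. It read 7.59, 9.33, 9.14 and 8.90 CPM in Ctrl sham and 12.8, 11.4, 8.71 and 10.8 CPM in Ctrl TAC hearts, and 9.85, 9.25, 9.14 and 8.01 CPM in KO sham and 13.6, 12.3, 13.8 and 12.1 CPM in KO TAC hearts. The KO groups of Me2 did not overlap and the Ctrl groups did. It rose by 0.32 in Ctrl (SE 0.10, adjusted p = 0.0331) and 0.51 in KO hearts (SE 0.10, adjusted p = 0.000738), and the Ctrl call of Me2 was lost without Ctrl sham 1 or 4 or without Ctrl TAC 1, 2 or 4. In KO hearts the citrate carrier Slc25a1 rose most, by 0.70 (adjusted p = 0.000348).

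Of 7 genes of NADPH supply, which Me1 and Me3 also serve, and of mitochondrial folate metabolism, 4 were called lower and 2 higher in each genotype (4 and 3 in KO hearts without KO TAC 4), beside the same shares of all genes. Mthfd1l rose most, by 0.44 in Ctrl (adjusted p = 0.0297) and 0.56 in KO hearts (adjusted p = 0.00372), and Aldh1l2 fell most, by 1.27 (adjusted p = 0.000912) and 1.61 (adjusted p = 5.67e-05). Mthfd1l itself yields no NADPH, and its Ctrl call was lost without Ctrl sham 2 or Ctrl TAC 2 or 4. Aldh1l2 oxidizes formyl-tetrahydrofolate and yields NADPH. Pdha2, the testis form of E1 alpha, had no count in any library.

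Genes that varied most like these within groups were sought by Pearson's r of log2 CPM over the 16 libraries after the group mean was removed, leaving out genes whose average log2 CPM was under 2. These values describe libraries that share depth and tissue make-up and carry no test. Pdha1 was nearest to the complex I gene Ndufs1 (r = 0.93) and to Mut (0.92), Dlat to the E2 gene Dlst of the 2-oxoglutarate complex (0.89), Dld to Cs (0.90) and Me3 to Nipsnap2 (0.89). Pdp2 was nearest to Dgkz (0.86), Pdp1 to Thsd4 (0.92), Pcx to Srsf9 (0.87), Pdhb to Dhrs3 (0.88) and Pdhx to Tufm (0.85).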

How the data were processed

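The authors deposited 1 table of raw counts per Ensembl gene for 16 poly(A) RNA libraries (paired 150-base reads), without normalization. The submitters' processing notes name GRCm38, cutadapt 2.3, FastQC, HISAT2 2.1.0 and edgeR 3.26.1, and the counting program, annotation and use of strand are not given in the sources used here. Symbols and positions came from GENCODE M21 and sequences from RefSeq.

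Genes were filtered with filterByExpr and scaled by TMM in edgeR 4.0.16 (R 4.3.3), which kept 18275 of 55487 genes. CPM are relative to TMM-scaled totals, and counts per kilobase used the longest APPRIS principal transcript. A quasi-likelihood model (glmQLFit, robust) with 4 group means was fitted to all 16 libraries, with Benjamini-Hochberg adjustment over all tested genes and calls at an adjusted p under 0.05. Ratios of 2 genes (prior count 2) were compared by exact permutation. The fit was tested on simulated data. Total counts, 53169437 to 79404714, set the precision of low genes.

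The members and lists were chosen with earlier results of these data known. Named were the 10 genes, Pdk1 to Pdk4, Pdpr, Mpc1, Mpc2 and Me2, the largest called rise and fall of each list and contrast (given where the text turns on them), and the nearest genes by r, where that of Me1 is not reported here. Alternatives were RLE factors, DESeq2 1.42.0, other filters, a threshold of 0.01, terms for animal-number series, fits to 8 libraries, omission of libraries and, chosen after seeing the data, levels relative to cardiomyocyte markers and omission of libraries for the lists.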

Additional observations from a re-analysis of the deposited data

Results flagged for a closer look

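A library far from the 3 others of its group was looked for in 72 sets of 4 libraries, those of the 10 genes and of Pdk1 to Pdk4, Pdpr, Mpc1, Mpc2 and Me2 in each group, and 3 were found. Chance flags about 1 in 20 such sets. Pdk2 stood at 326 CPM in Ctrl sham 3, under the 351 to 352 CPM of the other Ctrl sham libraries. Pdk4 stood at 169 CPM in KO TAC 1, above the 103 to 109 CPM of the other KO TAC libraries. Mpc1 stood at 288 CPM in KO sham 1, above the 281 to 282 CPM of the others, a group with a narrow range. None of the 10 genes had such a library, and none was called for the genotype by surgery interaction by edgeR.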

How the results depend on the processing

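Of the 10 genes, 5 to 6 were called with TAC in Ctrl hearts and 6 to 8 in KO hearts over 25 alternatives each, 7 to 8 averaged over genotypes, and 0 between sham groups. Between KO TAC and Ctrl TAC the count of 2 became 0 with no filter, at an adjusted p under 0.01 and in a fit to 8 libraries. It also became 0 with the first series of animal numbers in the model and without both Ctrl TAC 2 and KO TAC 4. The count became 3 with DESeq2 and with a minimum of 10 counts, and ran from 0 to 3 when 1 library was left out. DESeq2 raised the interaction count from 0 to 1. The cause was not tested. No paired analysis was possible because the labels give no replicate numbers shared between groups.

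Values of log2 fold change that changed sign were small in most cases. Leaving out 1 library at a time, Pdhb with TAC in Ctrl ran from -0.0148 to 0.0364 and Me1 with TAC in KO from -0.0606 to 0.0697 (0.00725 without both libraries named above). Between KO TAC and Ctrl TAC, Me1 ran from -0.0212 to 0.0516 and Mpc1 from -0.00826 to 0.101. Between sham groups Dld ran from -0.0470 to 0.0141, Pdhx from -0.0370 to 0.0301, Pcx from -0.0528 to 0.0453, Me1 from -0.132 to 0.00178 and Me3 from -0.0576 to 0.0334. The term for mice whose numbers begin with 33 gave -0.00762 for Pdhb, 0.0463 for Me1 and 0.00878 for Me3 between sham groups and -0.0304 for the interaction of Me1.

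Among log2 ratios, leaving out 1 library, Dld/Dlat ran from -0.0263 to 0.0191 and Pcx/Pdha1 from -0.101 to 0.0515 between KO TAC and Ctrl TAC (0.0872 without both libraries), Pcx/Pdha1 from -0.140 to 0.0123 with TAC in Ctrl and Pdk4/Pdp2 from -0.0293 to 0.459 with TAC in KO. Between sham groups Pcx/Pdha1 ran from -0.0177 to 0.0748, Me1/Me3 from -0.111 to 0.00899, Pdk4/Pdp2 from -0.0134 to 0.485 and Pdp1/Pdp2 from -0.0774 to 0.133.

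Relative to the mean of 10 cardiomyocyte markers, chosen after seeing the data, the sign turned among the 10 genes with TAC in Ctrl for Dlat (0.0364) and Me1 (0.0452), with TAC in KO for Pdha1 (0.0109), Pdhb (0.111), Dlat (0.111), Pdp1 (0.142) and Me1 (0.323), and between KO TAC and Ctrl TAC for Pdha1 (0.0880), Pdhb (0.00444), Dlat (0.00889), Dld (0.00839), Pdhx (0.133), Pcx (0.0824) and Me3 (0.0251). Among the other regulators it turned for Pdk1 (0.0531 in Ctrl and 0.241 in KO, the last without overlap), Pdpr (0.0891 in KO), Mpc1 (0.136 in KO, without overlap) and, between KO TAC and Ctrl TAC, Pdk1 (0.148) and Pdk2 (0.0300). Relative to the summed markers, the values were 0.113 and 0.121 for Dlat and Me1 in Ctrl, 0.120, 0.221, 0.221, 0.0469, 0.251 and 0.432 for Pdha1, Pdhb, Dlat, Dld, Pdp1 and Me1 in KO, and 0.139, 0.0556, 0.0601, 0.0596, 0.184, 0.134 and 0.0763 for Pdha1, Pdhb, Dlat, Dld, Pdhx, Pcx and Me3 between KO TAC and Ctrl TAC. The other alternatives gave values of single genes, of ratios and, under RLE factors, of mean CPM in each group. Of these, 2405 kept direction and call (for a group mean, stayed within the group SD), 73 lost a call, 21 gained one and 41 changed sign. No ratio was called in any alternative, so the ratios were counted only as kept or as changed in sign, and their share of the 2405 does not measure how firm a call is. Of the 10 genes and the 8 regulators, Pdk3 had the fewest counts, at 62 to 189 per library.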
